A study of Sus scrofa with 44 samples.

Results

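Endothelial genes of the pig fetal back muscle are described here through 9 members of the 22427 genes measured: SOX18, SOX17, SOX7, ERG, CDH5, PECAM1, KDR, TEK and TIE1. They were chosen because earlier work on these data had found SOX18 to rise most between the first and second stages, and a CDH5 peak to have a very high fold enrichment at the first stage. Those values, and every comparison of E40 with E33, are therefore given as descriptions with no test, and SOX18 was not tested against E33 or E40. The study measured input RNA and RNA immunoprecipitated with an antibody to N6-methyladenosine (m6A, a methyl mark on adenosine) in the longissimus dorsi. Muscle was taken at 6 stages, E33, E40, E50, E60, E70 and E95, named for the days post coitus, and each stage has 3 inputs and 3 immunoprecipitates of rRNA-depleted RNA. PK15 cells, a kidney line of the same species labelled as adult, gave 8 more samples, 2 inputs and 2 immunoprecipitates for each of polyA and rRNA-depleted RNA. Levels were used from the 18 muscle input libraries and peaks from 8 lists, 1 per stage and 1 per PK15 preparation. No genotype, breed or treatment separates the muscle groups in the labels, which do not say whether replicates came from separate fetuses or litters, so p-values measure only the spread between these samples.

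Endothelial cells line blood vessels. Vascular endothelial growth factor, made by the surrounding tissue, acts on the receptor KDR to make them divide and sprout, and angiopoietins acting on TEK, with its partner TIE1, settle the new vessels. CDH5 and PECAM1 hold neighbouring cells together, and ERG and the SOXF transcription factors (SOX7, SOX17 and SOX18) switch on endothelial genes. In growing muscle the capillary bed forms alongside the fibres. The mark m6A is laid down at DRACH sites, most often near stop codons and in 3′ UTRs.

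The m6A peaks of the members are shown first, as the stretch common to all muscle lists that held them, since these stretches carry the positions that recurred. Coordinates and bases are those of the RefSeq genome Sscrofa11.1, each written 5′ to 3′ on the strand of the gene. Capitals mark DRACH, which is A, G or T, then A or G, then AC, then A, C or T, searched on the transcript strand with overlaps allowed. The CDH5 stretch is the last 144 coding bases in exon 12 of 13, chr6:27140496-27140639 on the plus strand, and ends with the stop codon. The PECAM1 stretch lies in the coding part of exon 4, chr12:14681195-14681344, plus strand. The SOX7 stretch, chr14:13940306-13940396, and the SOX17 stretch, chr4:76855299-76855388, are coding sequence of exon 2 of 2, both on the minus strand. The KDR stretch is coding sequence of exon 13 of 30, chr8:41836685-41836774, and KDR stop is the coding end of the last exon, chr8:41810769-41810817, both on the minus strand. The ERG lines are 29-base sites in the 3′ UTR of the last exon, chr13:202001232-202001260 and chr13:202001213-202001241, minus strand, and in them capitals mark only the DRACH match at the centre.
CDH5: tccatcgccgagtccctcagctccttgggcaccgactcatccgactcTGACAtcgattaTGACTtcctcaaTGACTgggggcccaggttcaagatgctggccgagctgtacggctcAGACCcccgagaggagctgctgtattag
PECAM1: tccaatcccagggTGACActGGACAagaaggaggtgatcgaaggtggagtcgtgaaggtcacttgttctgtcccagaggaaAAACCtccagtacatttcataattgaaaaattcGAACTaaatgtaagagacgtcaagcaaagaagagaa
SOX7: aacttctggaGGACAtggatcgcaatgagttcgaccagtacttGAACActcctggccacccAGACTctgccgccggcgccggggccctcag
SOX17: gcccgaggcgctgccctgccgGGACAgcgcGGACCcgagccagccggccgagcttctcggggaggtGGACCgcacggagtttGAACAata
KDR: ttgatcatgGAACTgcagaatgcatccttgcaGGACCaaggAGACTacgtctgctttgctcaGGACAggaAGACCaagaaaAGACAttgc
KDR stop: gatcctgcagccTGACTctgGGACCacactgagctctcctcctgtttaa
ERG site 1: acagatataaggGGACAtggacatttaat
ERG site 2: gacatttaatccGGACCaaccttgcaaaa
The CDH5 stretch holds 5 DRACH sites counting its 7 bases past the stop codon, the KDR exon 13 stretch holds 6 and the PECAM1 stretch holds 4. All 56 muscle peaks of the members held at least 1 DRACH site, as did 95.7% of the 44099 muscle peaks on assembled chromosomes, which are of many lengths. The members' peaks held 27.3 sites per 1000 bases and all peaks 22.8. The letters GGACT were found in 28.6% of the members' peaks and in 30.8% of all peaks. These matches describe the sequence and are not methylated sites.

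The scale of the levels has to be fixed before the members can be compared between stages. The values are TPM, a share of all transcripts corrected for gene length, and 1 RNA without a symbol held between 37.4% and 72.4% of the TPM of a library. A second such RNA held 17.3% in E40 replicate 2 and 14.4% in E50 replicate 3 but at most 1.19% in the others, so that nearly all other genes were low as deposited in those libraries. Levels were therefore divided by each library's median ratio to the genes above 0 in every library, and are called scaled TPM. A rise on this scale is a rise relative to the median gene. Changes are differences of log2(scaled TPM + 1), which understate the change of genes near or below 1, and were tested with limma with Benjamini-Hochberg adjustment over 13334 genes, a gene being called at an adjusted p under 0.05. From E33 to E95 the median gene moved by 0.00 on this scale and by -1.02 in TPM as deposited, and the genes called were 3154 higher and 3075 lower when scaled against 352 higher and 6109 lower as deposited. Of 10 matched housekeeping genes none was listed at 0 in any library, but 861 tested genes were listed at 0 in at least 1 library and at 10 TPM or more in another.

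Relative to the median gene, 7 of the 8 members tested rose from E33 to E95 and none fell, by the limma test. They were SOX17, SOX7, CDH5, PECAM1, KDR, TEK and TIE1, while ERG differed by 0.04 (SE 0.13, adjusted p = 0.825). The share of all tested genes called in this comparison was 46.7%, with 23.7% higher and 23.1% lower at E95, and the median change of the 8 members was 1.51. In TPM as deposited the members' count was 1, and that was ERG, lower at E95. Deposited means of SOX7, PECAM1 and KDR were higher at E95 with no overlap between libraries but did not pass the test (adjusted p = 0.0989, 0.0746 and 0.319, limma), and for SOX17, CDH5, TEK and TIE1 the libraries overlapped. In bulk muscle, more endothelial cells and more of these RNAs per cell cannot be told apart.

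**Figure D1:**
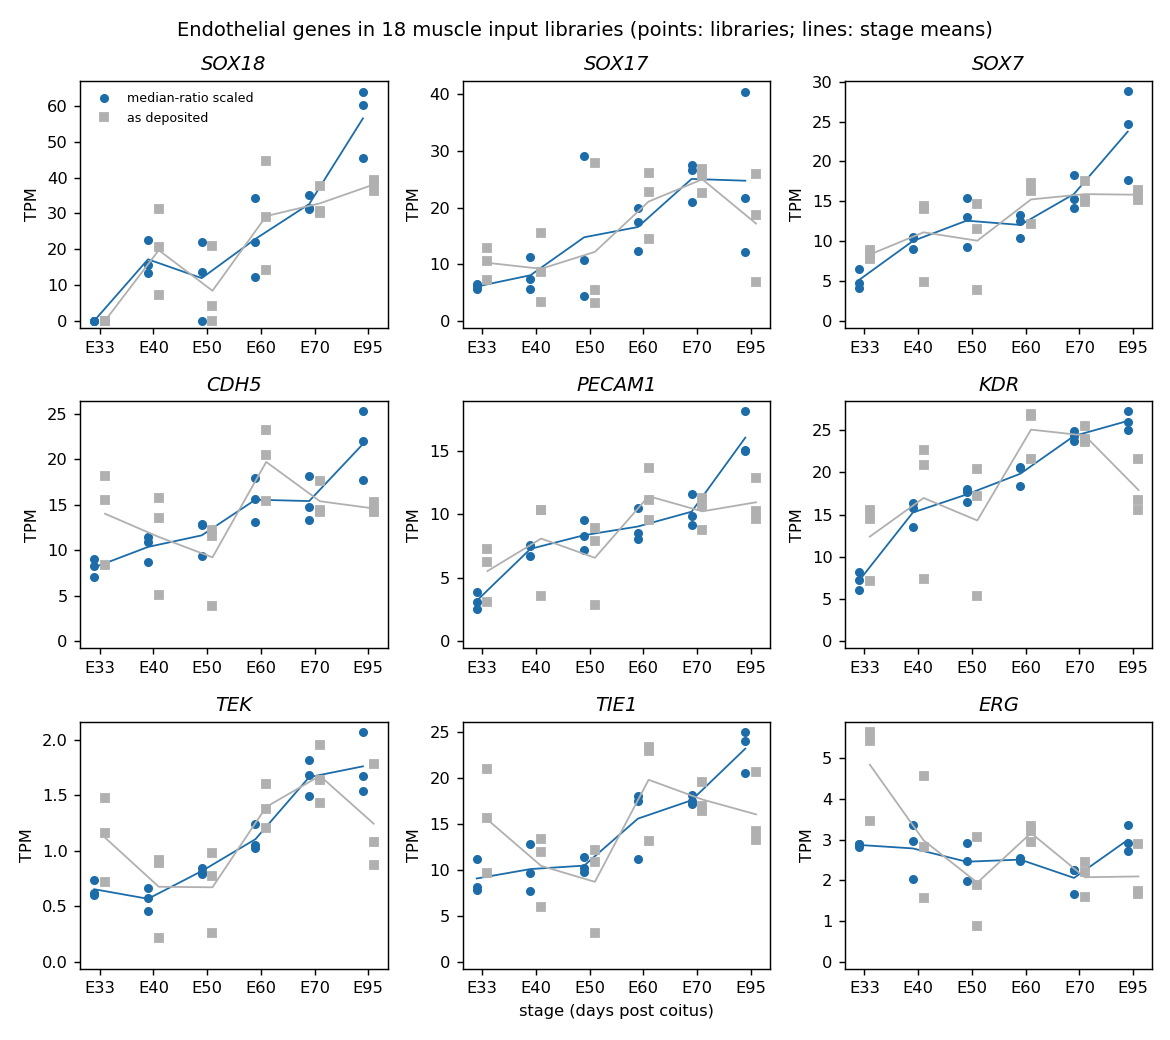
Levels of the 9 endothelial genes (TPM, vertical axis, a separate range per gene) at the 6 stages (days post coitus), with blue circles for scaled TPM, grey squares for TPM as deposited, 1 point per library and lines through the stage means. On the scaled values KDR climbs at every stage, from a mean of 7.17 to 26.1, ERG stays between 2.06 and 2.99, and SOX18 is at 0 in the 3 E33 libraries. As deposited, the KDR mean falls from 24.378 at E70 to 17.918 at E95.

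SOX18, a transcription factor needed for vessel and lymphatic formation, lies at chr17:62869868-62871758 on the minus strand (ENSSSCG00000037865). It was listed at 0 TPM in all 3 E33 libraries. Scaled TPM at E40 was 22.6, 15.5 and 13.4, and at E50 it was 22.0, 0 and 13.7 in replicates 1, 2 and 3. At E60 the levels were 12.1, 34.4 and 22.1, at E70 31.3, 35.0 and 31.5, and at E95 60.2, 63.8 and 45.6. The E95 libraries lay above every other library, the E33 libraries shared their 0 with E50 replicate 2, and the ranges of E40, E50 and E60 overlapped. A listing of 0 in a file without counts can be a failed estimate. Of the genes tested, 3 were at 0 in the 3 E33 libraries and at 5 TPM or more in the 3 E40 libraries, and 12 the other way round. From E50 to E95 SOX18 rose by 3.03 (SE 0.80, adjusted p = 0.0100, limma), a size that rests in part on the library at 0. Without E50 replicate 2 the rise was 1.63, and when the 6 libraries concerned were fitted alone the adjusted p was 0.155. In deposited TPM the E95 libraries, at 38.7, 36.2 and 39.3, overlapped those of E60 and E70.

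SOX7 and SOX17, the other SOXF factors, had no entry in the symbol table and were matched by position, since 8 and 4 peaks on their RefSeq exons each carried a single identifier (ENSSSCG00000031889 and ENSSSCG00000006256). SOX7, at chr14:13938381-13945324 on the minus strand, had scaled TPM of 6.49, 4.14 and 4.75 at E33. Its levels at E95 were 24.7, 28.8 and 17.6, and stage means in between ran from 10.01 at E40 to 15.9 at E70. All 3 E33 libraries lay below every later one, and the change from E33 to E95 was 2.01 (SE 0.20, adjusted p = 1.28e-06, limma). SOX7 also stood apart in deposited TPM, with means of 8.31 at E33 and 15.8 at E95 and no overlap, although that difference did not pass the test (adjusted p = 0.0989). SOX17 lies at chr4:76854218-76857143 on the minus strand, and its libraries differed widely within E50 and E95. Its scaled TPM was 6.06, 6.45 and 5.63 at E33, 29.1, 4.43 and 10.7 at E50, and 40.5, 12.1 and 21.6 at E95. SOX17 rose by 1.71 from E33 to E95 (SE 0.50, adjusted p = 0.0111, limma), but without E95 replicate 1, its highest library, the change was 1.29 with an adjusted p of 0.0593, and after rescaling without the 2 most abundant genes 1.15 with 0.0772. From E50 to E95 the SOX17 change of 0.90 did not pass the test (adjusted p = 0.199), and it did without E50 replicate 1 (1.54, adjusted p = 0.0153).

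ERG, an ETS-family factor that maintains endothelial junction genes and is also expressed in developing cartilage, lies at chr13:201999237-202302572 on the minus strand (ENSSSCG00000022318). Its scaled TPM was 2.89, 2.83 and 2.88 at E33, 2.51, 2.47 and 2.55 at E60, and 2.71, 2.92 and 3.35 at E95. All stage ranges next to each other in the order of the means overlapped, from 2.06 at E70 to 2.99 at E95. Stages further apart in that order could separate. The E70 libraries (1.65 to 2.26) lay below those of E60 and E95, and the E33 libraries above those of E60. The change from E70 to E95 did not pass the test (0.39, adjusted p = 0.0722, limma). From E33 to E95 ERG was the one member tested without a call in scaled TPM. Its deposited means were 4.84 at E33 and 2.09 at E95, with no overlap. In deposited TPM ERG was the one member called lower at E95 (change -0.92, adjusted p = 0.0409, limma). It was also lower after TPM was rescaled without the 2 most abundant genes (-0.54, adjusted p = 0.0114, limma). The median of all genes tested was -1.02 as deposited and -0.60 after this rescaling. On neither scale did ERG fall further than the median gene. Summed scaled TPM of 4 cartilage markers was 111 to 159 at E33 and 29.3 to 37.6 at E95, none of the 4 at 0, and their part in the ERG values was not tested.

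CDH5, the adhesion protein of endothelial junctions also called VE-cadherin, lies at chr6:27108560-27142145 on the plus strand (ENSSSCG00000035772). Scaled TPM was 7.01, 9.08 and 8.26 at E33, 12.8, 9.34 and 12.7 at E50, and 22.0, 25.3 and 17.7 at E95. Means at E40, E60 and E70 were 10.4, 15.6 and 15.4. E33 and E95 did not overlap, but E95 overlapped E60 and E70. The rise from E33 to E95 was 1.31 (SE 0.17, adjusted p = 1.79e-05, limma). In deposited TPM the means were 14.0 and 14.6, with overlapping libraries and an adjusted p of 0.829.

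PECAM1, a surface protein of endothelial cells that leukocytes and platelets also carry, lies at chr12:14667643-14723296 on the plus strand (ENSSSCG00000017277). Scaled TPM was 2.56, 3.11 and 3.87 at E33, 7.49, 7.62 and 6.70 at E40, and 15.0, 18.1 and 15.0 at E95. At E50, E60 and E70 the means were 8.35, 9.03 and 10.2. The values fall into 3 levels, E33 below all later libraries, E40 to E70 overlapping from one to the next, and E95 above all others. PECAM1 rose by 2.03 from E33 to E95 (SE 0.14, adjusted p = 2.59e-08, limma). Deposited means were 5.52 and 10.9 with no overlap, and an adjusted p of 0.0746. Summed scaled TPM of 8 leukocyte markers was 34.6 to 44.8 at E33 and 47.7 to 77.7 at E95, that of 3 platelet-lineage markers was 14.6 to 15.2 and 8.99 to 15.96, none at 0, and their part in PECAM1 was not tested.

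KDR, the main receptor for vascular endothelial growth factor, lies at chr8:41809116-41856379 on the minus strand (ENSSSCG00000008844) and had the smallest standard error of the members. Scaled TPM was 6.03, 7.26 and 8.24 at E33 and 16.4, 15.8 and 13.5 at E40. It was 18.05, 16.4 and 17.7 at E50 and 18.3, 20.6 and 20.6 at E60. At E70 it was 25.0, 23.7 and 24.3, and at E95 26.0, 27.3 and 25.0. In scaled TPM the 3 libraries of each stage lay above all 3 of the stage before, at each of the 5 steps. The margin was as little as 16.42 against 16.44 from E40 to E50 and 24.95 against 25.02 from E70 to E95. The direction of the last step depended on the scaling. Its log2 change was 0.10 in scaled TPM (adjusted p = 0.591, limma) and -0.44 as deposited. It was -0.06 after quantile normalization and -0.20 after rescaling without the 2 most abundant genes. None of these changes passed the test. Deposited means fell from 24.378 at E70 to 17.918 at E95 with no overlap, and from 16.973 at E40 to 14.304 at E50 with overlap. The rise from E33 to E95 was 1.74 (SE 0.10, adjusted p = 5.95e-09, limma), whereas deposited means were 12.4 and 17.9, without overlap and with an adjusted p of 0.319.

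TEK, the angiopoietin receptor, lies at chr1:195938177-196052294 on the minus strand (ENSSSCG00000005122) and had the lowest levels of the set. Scaled TPM was 0.604, 0.738 and 0.615 at E33, 0.666, 0.455 and 0.578 at E40, and 1.68, 1.54 and 2.07 at E95. Means at E50, E60 and E70 were 0.816, 1.10 and 1.66, and the stages from E40 to E70 did not overlap from one to the next. TEK rose by 0.74 from E33 to E95 (SE 0.11, adjusted p = 9.46e-05, limma), and by 1.30 with a pseudocount of 0.1 in place of 1. TIE1, the orphan partner of TEK, lies at chr6:167919662-167947253 on the minus strand (ENSSSCG00000003950). Its scaled TPM was 8.15, 7.84 and 11.2 at E33 and 20.6, 25.0 and 24.0 at E95, and the means between them were 10.1, 10.5, 15.6 and 17.6. The E95 libraries lay above all others and the ranges of E33, E40 and E50 overlapped. TIE1 rose by 1.28 (SE 0.19, adjusted p = 5.85e-05, limma). Deposited TPM of both receptors overlapped between E33 and E95, with means of 1.12 and 1.24 for TEK and 15.5 and 16.04 for TIE1, at adjusted p of 0.847 and 0.881.

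Between E50 and E95, 7 of 9 members rose and none fell, against a background of 30.4% called, 15.9% higher and 14.5% lower. The exceptions were SOX17 and ERG (0.21, adjusted p = 0.258, limma). These stages played no part in choosing SOX18, but the fit takes its spread from all 18 libraries, E33 and E40 included. The SOX18 call is therefore not free of the stages that chose it, and with the E50 and E95 libraries fitted alone its adjusted p was 0.155. After SOX18 the changes were 1.08 for TIE1, 0.87 for PECAM1, 0.87 for SOX7, 0.84 for CDH5, 0.60 for TEK and 0.56 for KDR, with adjusted p from 2.42e-04 to 0.00413. SOX7 lost its call when the E50 and E95 libraries were fitted alone (adjusted p = 0.0729), and KDR and TEK lost theirs after rescaling without the 2 most abundant genes (adjusted p = 0.269 and 0.0591). In deposited TPM, where E50 replicate 3 is low throughout, SOX18 alone was called, and over all genes 287 were called in place of 4054. The F test over E50, E60, E70 and E95 called the same count, 7 of 9, where 27% of all genes were called. SOX18 passed it with an adjusted p of 0.0475 that 5 of 27 alternatives kept under 0.05. Leaving out any single E33 or E40 library was enough to lose that call. Without E95 replicate 2 the count of members fell to 4.

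Step by step, few differences passed. No member was called between E40 and E50 (8 tested, background 1.51%), between E50 and E60 (9 tested, background 0.817%) or between E60 and E70 (9 tested, background 1.73%) by the limma test. At an unadjusted p under 0.05 the counts were 0, 2 and 2. From E70 to E95 PECAM1 alone rose, by 0.61 (SE 0.14, adjusted p = 0.00864), where 13.6% of genes were called. That count was 3 without E95 replicate 3, adding SOX7 and CDH5, and 2 without E40 replicate 1, adding ERG. From E33 to E40, which is a description only, the scaled means of PECAM1, KDR and SOX7 went up 2.28, 2.13 and 1.95 times with no overlap. Those of CDH5, TIE1, SOX17, ERG and TEK overlapped between the same stages, at ratios of 1.28, 1.11, 1.33, 0.970 and 0.868.

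**Figure D2:**
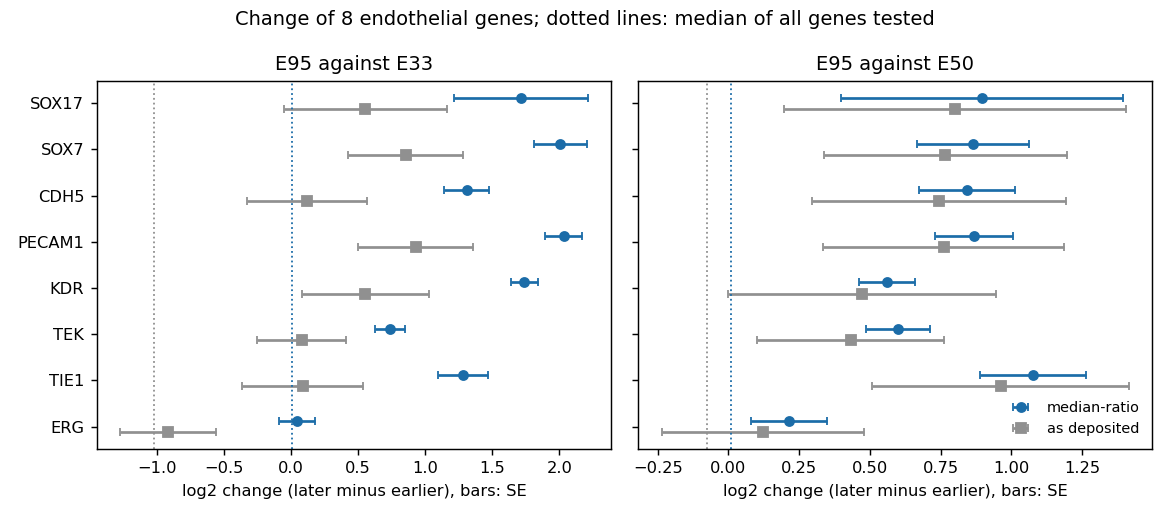
Log2 change from E33 to E95 (left) and from E50 to E95 (right) for 8 members, SOX18 left out because 4 of its libraries are at 0, with the limma standard error as bars, blue circles for scaled TPM and grey squares for TPM as deposited, and dotted lines at the median of all genes tested. At E95 against E33, ERG lies close to the dotted line of its scale and the other 7 to the right of theirs, and the deposited values have wider errors.

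Ratios between members within a library do not depend on how libraries are scaled. Relative to CDH5, the log2 ratio of ERG was -1.28, -1.68 and -1.52 at E33 and -3.02, -3.12 and -2.40 at E95. Its stage means went from -1.49 through -1.92, -2.25, -2.62 and -2.91 to -2.85, so ERG fell to 0.391 of its E33 proportion to CDH5, with no overlap between the first and last stage. PECAM1 had log2 ratios from -1.54 to -1.09 at E33 and from -0.88 to -0.25 in all later libraries. KDR had ratios from -0.32 to 0.00 at E33 and from 0.11 to 0.83 in all later libraries. SOX7 likewise did not overlap between E33 (-1.13 to -0.11) and E95 (-0.01 to 0.19). TIE1 had stage means between -0.14 and 0.20, with an E95 minus E33 difference of -0.04. TEK differed by 0.02 between those stages, but its ratios at E40 (-4.58 to -3.92) lay below those at E70 (-3.43 to -2.88) with no overlap. SOX17 differed by 0.45 from E33 to E95, with overlap. These ratios were tested after their values had been seen. An exact two-sided permutation test of 3 against 3 libraries cannot go below 0.1. It gave that value for ERG, PECAM1, KDR and SOX7 (0.175 after Benjamini-Hochberg adjustment over the 7 ratios), 0.600 for SOX17, 0.900 for TEK and 1.00 for TIE1.

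**Figure D3:**
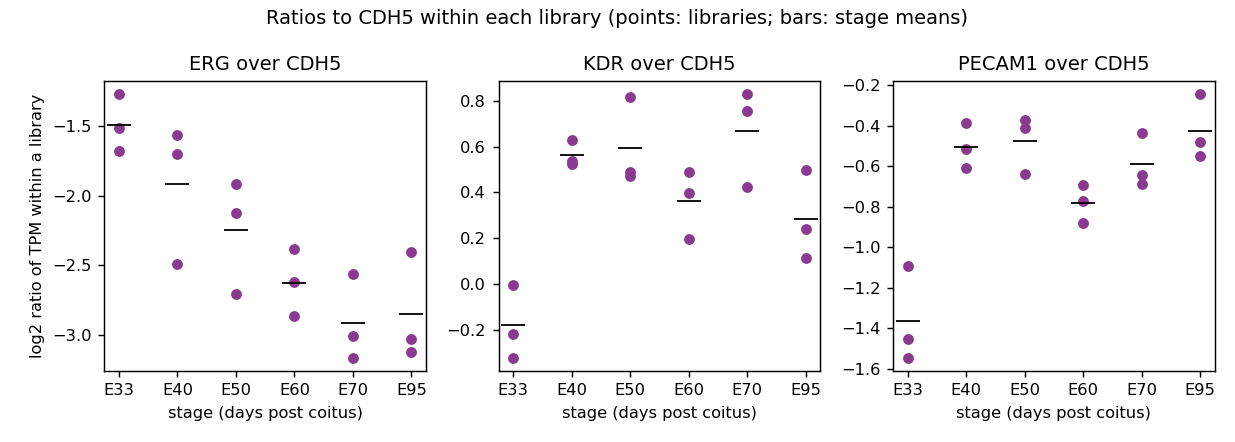
Log2 ratio of ERG, KDR and PECAM1 to CDH5 within each of the 18 libraries (vertical axis) by stage in days post coitus (horizontal axis), with 1 point per library and bars at stage means. ERG goes from -1.49 at E33 to -2.85 at E95, and the later stage means lie between 0.28 and 0.67 for KDR and between -0.78 and -0.43 for PECAM1, all above their E33 means of -0.18 and -1.36.

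Peaks were found in 6 of the 9 members in at least 1 muscle list. CDH5, PECAM1 and ERG had a peak in all 6, SOX7 and KDR from E50 on, and SOX17 at E60 and E95. SOX18, TEK and TIE1 had none, although TIE1 was expressed at scaled means of 9.06 to 23.2. Over all genes tested, 18.3% had a peak in all 6 muscle lists and 54.2% in none. The number of members with a peak was 3 at E33 (background 33.5% of the genes averaging 1 TPM or more at that stage) and 3 in the E40 list (22.9%). It was 5 in the E50 list (32.6%), 6 in that of E60 (31.7%), 5 in that of E70 (35.6%) and 6 in the E95 list (37.5%). At E33, 3 of 9 is near the background, and from E50 on 5 or 6 of 9 is above it. That difference was not tested and is partly set by the choice of members. SOX7 and SOX17 were matched through their own peaks, and CDH5 was chosen for its E33 peak. The background takes genes from 1 TPM up and is not matched to the members' levels. The labels and headers do not say whether replicates were pooled for peak calling, there is 1 list per stage and so no replicate check, and a gene without a peak in a list is not shown to lack m6A. Fold enrichments are the authors' own values per peak. Of the 56 muscle peaks of the members, 28 reached the median fold enrichment of their list, and those medians ran from 3.51 to 4.88.

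**Figure D4:**
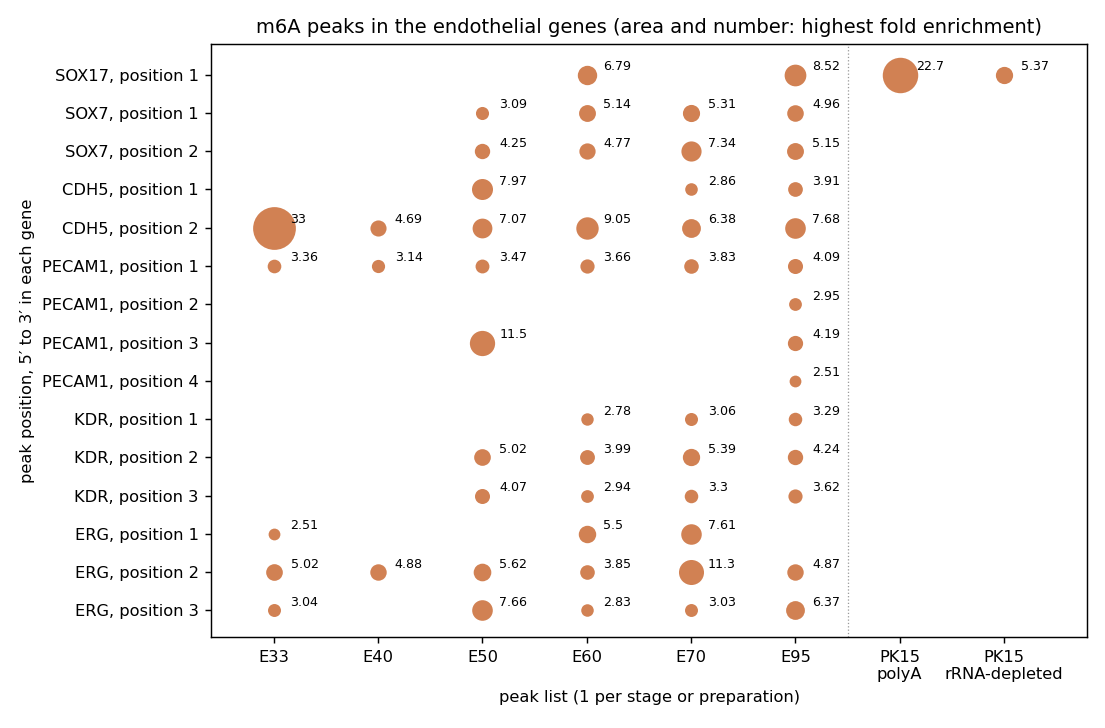
Peak positions of the 6 members with peaks (rows, numbered 5′ to 3′ within a gene) in the 8 lists (columns), with circle area and printed number giving the highest fold enrichment there and no circle where the list has no peak. CDH5 position 2 is its stop codon with the adjoining 3′ UTR, and it, PECAM1 position 1 and ERG position 2 are filled in all 6 muscle lists.

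The recurrent CDH5 peak covers the stop codon, the sequence printed above. Its fold enrichment was 33.0 at E33, the value for which it was chosen, and 4.69, 7.07, 9.05, 6.38 and 7.68 at the stages that followed. A second CDH5 peak joined exons 6 and 7, coding sequence that holds GGACT, at E50, E70 and E95 (7.97, 2.86 and 3.91). Another lay in the 3′ UTR of exon 13 at E60 and E70 (4.44 and 4.06), and at E95 the stop codon peak ran through it over 1168 bases.

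The PECAM1 peak in exons 3 and 4 had fold enrichments between 3.14 and 4.09 in all 6 lists, each time below the list median. PECAM1 also had a 3′ UTR peak at E50 (11.5) and at E95 (4.19), and E95 alone listed further peaks in exon 8 (2.95) and the 3′ UTR (2.51). In ERG the 3′ UTR stretch with both printed sites was listed at every stage, with fold enrichments of 5.02, 4.88, 5.62, 3.85, 11.3 and 4.87 in order. A stretch further along the same UTR was listed in 5 lists (2.83 to 7.66), and coding sequence of the last exon at E33, E60 and E70 (2.51, 5.5 and 7.61). ERG, at most at 3.35 scaled TPM, had 14 peaks over the 6 lists, and KDR, at up to 27.3, had 11.

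The KDR peaks began at E50. The stop codon peak had fold enrichments of 5.02, 3.99, 5.39 and 4.24 from there on, and a 3′ UTR peak 4.07, 2.94, 3.30 and 3.62. The exon 13 peak, which at E70 and E95 ran into exon 14, appeared at E60 with 2.78, 3.06 and 3.29 in turn. SOX7 had a pair of coding peaks in exon 2 at each of these stages, from 3.09 to 7.34. The level of KDR was 15.2 at E40, where no peak was listed, and 17.4 at E50, and that of SOX7 was 10.01 and 12.6. The E40 list is also the shortest, with 4928 peaks against 7058 to 8685 in the other stages, and its part in this was not tested.

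SOX17 was the one member with peaks in the kidney line, in both preparations. The coding peak of exon 2 had a fold enrichment of 22.7 in polyA RNA over 830 bases and of 5.37 in rRNA-depleted RNA over 297 bases, and of 6.79 and 8.52 in muscle at E60 and E95. The PK15 lists have medians of 7.41 and 3.92. Expression in PK15 was not analysed here. Wherever a member had peaks in consecutive muscle lists, in 21 cases, at least 1 position was shared by both lists, also when at least 50% of the shorter peak had to overlap.

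Further genes of the endothelial pathway were taken from lists of ligands, receptors, factors and surface genes. Of 62 listed genes, 54 matched a symbol and 51 were tested, of which 36 rose and 5 fell from E33 to E95 in scaled TPM (limma), beside 23.7% higher and 23.1% lower over all genes. In deposited TPM 5 were higher and 7 lower, where 352 of all genes tested were higher and 6109 lower. After rescaling without the 2 most abundant genes the counts were 28 and 8, where 1186 of all genes were higher and 6926 lower. Among ligands 2 of 3 tested rose (median 1.29), the largest rise being that of VEGFA (2.83, SE 0.20, adjusted p = 4.88e-08), the ligand of KDR, which muscle fibres also make. Among receptors 8 of 11 rose and 1 fell (median 1.29), led by S1PR1, the sphingosine phosphate receptor (2.32), with the neuropilin NRP2 lower (-1.12). Among other transcription factors 7 of 12 rose and 1 fell (median 0.80), ETS2 the most (1.67), and KLF4 fell (-0.82). FLI1, the ETS factor most closely related to ERG, did not pass the test from E33 to E95 either (-0.24, adjusted p = 0.0608), and was picked out after its value was seen. From E50 to E95, unlike ERG, FLI1 was called higher (0.53, adjusted p = 9.32e-04, limma).

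Junction and surface genes went furthest, with 12 of 13 higher, none lower and a median of 1.89. CAV1, the coat protein of caveolae, rose most (2.82, SE 0.13, adjusted p = 5.32e-10). The 1 gene of this list that did not pass was the scavenger receptor STAB1 (0.28, adjusted p = 0.186). Arterial, venous and lymphatic genes were divided, with 7 of 12 higher and 3 lower (median 0.96). The arterial gap junction gene GJA4 rose by 2.27, and its relative GJA5 fell by 2.74. The other two that fell were EFNB2 (-1.59), an arterial ligand, and its venous receptor EPHB4 (-0.95), both also expressed outside vessels. They are named here because of the small count.

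**Figure D5:**
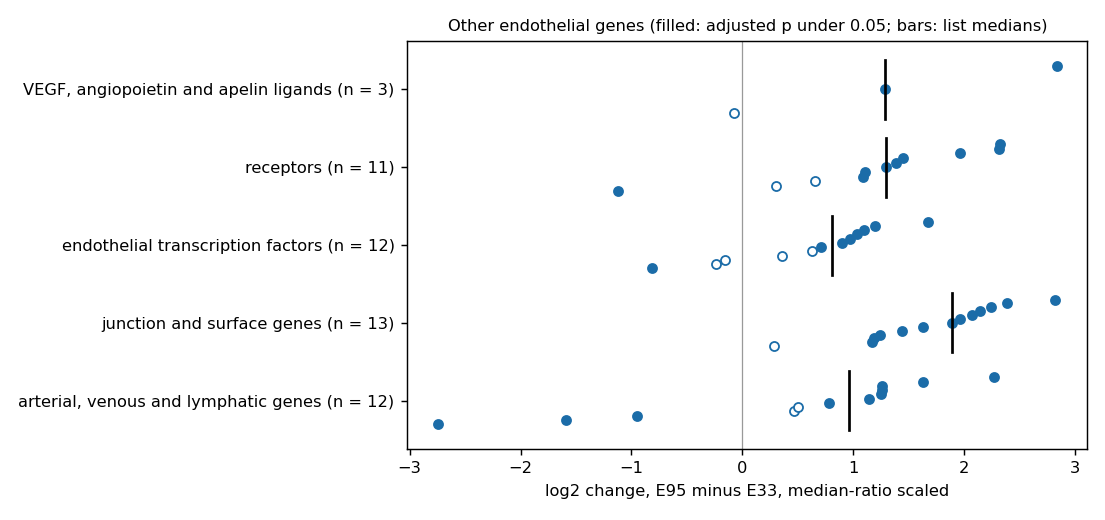
Log2 change from E33 to E95 in scaled TPM (horizontal axis) of the 51 other endothelial genes tested, by list, each point a gene, filled where the limma adjusted p is under 0.05, with bars at list medians. The junction and surface list has the highest median, 1.89, and the arterial, venous and lymphatic list holds the lowest gene, GJA5.

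Markers of other cells moved over the same stages, and their part in the members' values was not tested. The 8 endothelial markers with a symbol summed to 42.5 to 50.6 scaled TPM at E33 and 135 to 147 at E95, none at 0, and 5 of them are members. Over 10 skeletal muscle markers, of which 6 rose and 2 fell, the sum was 3394 to 3981 and then 14159 to 20086. Over 9 mural markers (4 of 8 tested higher, 2 lower) it was 218 to 248 and then 175 to 219, and over 6 fibroblast markers (4 higher, 2 lower) 2799 to 3652 and then 5711 to 8854. Neuronal and Schwann markers went from 114 to 147 at E33 to 17.3 to 75.7 at E95 (1 of 5 higher, 3 lower), and cartilage markers fell in 3 of 4 tested. Erythroid markers stood at 81.2 to 224 at E33 and 10.8 to 20.1 at E40, with 2 of 5 lower at E95. KLF1, a defining gene, was at 0 in all libraries of E33, E50 and E70. Of the leukocyte markers 3 of 7 tested rose and none fell, and of the platelet-lineage markers none of 3 rose and 1 fell. The endothelial sum was lower at E33 than at E95, and the erythroid, neuronal and cartilage sums were higher. Among the E33 libraries, replicate 3 had the highest sum in every marker list, so this was not particular to any cell type. Its sums were 50.6 for endothelial, 224 for erythroid, 147 for neuronal and Schwann and 159 for cartilage markers. For skeletal muscle, fibroblast and mural markers they were 3981, 3652 and 248.

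The genes whose profiles over the 18 libraries were most like those of the members were found by Pearson correlation among 10746 tested genes with a symbol, as a description, since all points share the libraries and their stages. For the mean of the members they were CHCHD10 (0.976), ROBO4 (0.975) and PLXND1 (0.975). ROBO4, an endothelial receptor, also came first for SOX18 (0.901), before SWAP70 and PLEKHH3, and PLXND1 first for CDH5 (0.957), before PLIN5 and CD93. For KDR the 3 nearest genes were fast muscle fibre genes, CKM (0.991), TNNT3 (0.987) and TNNI2 (0.984). PECAM1 had IGFBP7 (0.981), MYOZ1 and EIF4EBP1, and SOX7 had TNFRSF21 (0.964), COX6A2 and EIF4EBP1. TEK was nearest to FEZ2 (0.971), CMYA5 and ATCAY, TIE1 to FOXO4 (0.959), ACTN4 and BHLHE40, and SOX17 to CREG1 (0.886), ATF5 and ZBTB46. ERG had the weakest likeness to any gene, 0.80 for PITPNA, followed by PRMT2 and RFLNB. By Spearman correlation 6 of these 30 nearest genes remained among the nearest, so single names depend on the measure.

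Promoters, taken as 250 bases before to 50 after each RefSeq start, were searched on both strands for letters bound by ETS and SOX factors. CGGAAG was found in 1 member (KDR) and in 20.4% of 19534 promoters, AGGAAG in no member and 29.5%, AACAAT in 1 (CDH5) and 8.04%, and ACAATG in none and 8.86%. CGGAAG and AGGAAG overlap in their last 5 letters, as AACAAT and ACAATG share 5. These counts describe this window only.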

How the data were processed

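Groups of MeRIP-seq input and immunoprecipitated samples follow the labels. The deposited expression files hold TPM, per the file headers, for 22427 genes in each of the 18 muscle input libraries. Each library sums to 1000000 TPM, so depth is unknown. The deposited peak lists give the authors' fold enrichment and p-value per peak. Trimmomatic, HISAT2 and the build Sscrofa11.1 are named in the submitters' processing notes, without versions, and the quantifier, peak caller and its threshold are not given in the sources used here.

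TPM was scaled by median ratio over 14215 genes above 0 in all libraries, and genes averaging 1 TPM or more as deposited (13334, of which 10753 have a symbol) were fitted as log2(scaled TPM + 1) with limma 3.58.1 in R 4.3.3, with 1 mean per stage, a trended eBayes prior and Benjamini-Hochberg adjustment. The fit was tested on simulated data. Peaks were placed on RefSeq transcripts with Python 3.11.15 and pysam 0.24.0. The members and lists were chosen with earlier results of these data known. Named genes are the members, in each pathway list the called genes with the largest rise and fall from E33 to E95, for each member the 3 genes most alike, and every peak of a member. Genes named outside this rule are FLI1, STAB1, EFNB2, EPHB4 and KLF1. Alternatives changed the scaling, pseudocount (0.1), filter, libraries fitted, replicate block and prior. Protein sequences were not used here.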

Additional observations from a re-analysis of the deposited data

How the results depend on the processing

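Scaling changed the counts. In TPM as deposited, 1 member was called from E33 to E95 in place of 7, and 1 from E50 to E95 in place of 7. From E70 to E95 it was 0 in place of 1, and in the F test 0 in place of 7. Calls over all genes in these 4 comparisons also changed, from 6229 to 6461, 4054 to 287, 1809 to 38 and 3599 to 323. From E33 to E95 5 pathway genes in place of 36 were higher, and over all genes 352 in place of 3154. Rescaling without the 2 most abundant genes gave 0 from E70 to E95, 3 in the F test and 8 pathway genes lower in place of 5. Over all genes it called 2443 from E70 to E95 and 5359 in the F test, and 6926 in place of 3075 were lower from E33 to E95. ERG turned from 0.04 to -0.92 as deposited and -0.54 after rescaling, where the medians of all genes were -1.02 and -0.60. Quantile normalization moved no count of members by over 1.5 times. From E70 to E95 2 members were called with only the libraries of those stages, without both E40 replicate 2 and E50 replicate 3, and with the replicate block. Leaving out 1 library at a time gave 6 to 7 members from E33 to E95, 7 to 8 from E50 to E95, 1 to 3 from E70 to E95, 4 to 8 in the F test, 35 to 39 pathway genes higher and 5 to 6 lower. Same-numbered libraries did not deviate together (median correlation 0.02, lowest -0.12, highest 0.10). The labels do not say what the numbers mean, and these correlations cannot exclude that they pair samples. The replicate block changed the count over all genes from E33 to E95 from 6229 to 6114 and that from E40 to E50 from 202 to 122. All 28 cases of a member with a peak in a muscle list were found again when peaks were assigned by RefSeq exons. For SOX7 and SOX17 this could not fail, since their identifiers were taken from peaks on those exons. Counts over all genes from E40 to E50 ran from 1 (as deposited) to 384 (without E50 replicate 2), and from E50 to E60 from 6 to 131. Depth is unknown, so how far it limits the peak listings and the listings of 0 was not assessed.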
